A study of Mus musculus with 6 samples.

Results

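Genes of DNA replication and of mitosis were examined in unstimulated follicular B cells with 1 or with no working copy of Myh9. This gene encodes the heavy chain of the motor protein myosin IIa. A list of 42 genes was drawn up by function, from origin licensing to cytokinesis, and each gene was looked up by its symbol in the authors' deposited table. All 42 were found among its 20458 gene names. For each gene, FPKM, a count of sequenced fragments divided by transcript length and library size, was summed over its entries in each genotype. A cutoff of 1 FPKM for the mean of both genotypes left 31 members above it and 11 below it, and the latter are described apart.

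The cells were follicular B cells of C57BL/6 mice, sorted as B220+AA4.1-CD23+CD21lo, and made up 6 samples, 3 of genotype CD23Cre+Myh9wt/fl and 3 of genotype CD23Cre+Myh9fl/fl. Every mouse carried Cre recombinase under the CD23 promoter, which is active from transitional B cells onward, and at least 1 Myh9 allele with LoxP sites around exon 3. The comparison group is therefore haploinsufficient for myosin IIa, and a group with 2 intact alleles is not among the samples. The labels give no age or sex for the sequenced mice, and for cells examined ex vivo the study's methods name mice of both sexes and a range of ages, not broken down by group. The cells were not stimulated in culture. By the study's account, fl/fl follicular B cells carried more CD23 and MHC class II and less IgM on their surface. It reads this as an activated phenotype, though it found no significant change in Cd44, Cd69 or Cd86. The authors pooled the 3 samples of a genotype into a single FPKM value per entry, so a difference below is a size without a spread between mice, and no test was made. Where 2 values of a gene follow each other, the first is that of wt/fl and the second that of fl/fl cells. Fewer cells of a kind and less RNA per cell cannot be told apart in such bulk values. Myh9 itself was at 50.6 FPKM (wt/fl) and 21.1 FPKM (fl/fl), and the B cell markers with the highest levels, Cd74 and Cd79b, were at 7307 and 1638 FPKM in wt/fl and at 7237 and 1739 FPKM in fl/fl cells.

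A cell that divides first loads the MCM helicase onto replication origins with the help of Cdc6 and Cdt1, then copies its DNA in S phase, and afterwards uses cyclin B with Cdk1, the Aurora kinases and Plk1 to build a spindle and separate its chromosomes. The anaphase-promoting complex (APC/C) ends mitosis by marking cyclin B for destruction, and a contractile ring of actin and myosin II then splits the cell. Genes of replication are typically switched on by E2F factors, and genes of mitosis later, through the cell cycle genes homology region (CHR) and the CCAAT boxes of their promoters. Follicular B cells are mostly quiescent until they meet antigen, whereas pro-B cells and germinal center B cells divide rapidly. The comparison of the genotypes addresses which transcripts differ in unstimulated cells when myosin IIa is missing.

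RefSeq promoter windows, from 250 bases before to 50 bases after the start of transcription on build GRCm38.p6, were at hand for 34 of the 42 members, 4 of which have 2 windows. They are shown because replication and mitosis members are described apart below, and their promoters hold different motifs. The windows were searched on both strands for the CHR core (TTTGAA), the CCAAT box (CCAAT) and E2F sites (the letters TTCCCGC, or in their place TTCGCGC, or otherwise TTGCCGC, or as a last form TTGGCGC). Capitals mark every match in the 250 bases before the start, printed 5′ to 3′ along the gene's own strand. The first 4 sequences belong to the replication and the mitosis members with the highest FPKM, 2 of each, for which a window was at hand.
Pcna (chr2:132253181-132253430, minus strand): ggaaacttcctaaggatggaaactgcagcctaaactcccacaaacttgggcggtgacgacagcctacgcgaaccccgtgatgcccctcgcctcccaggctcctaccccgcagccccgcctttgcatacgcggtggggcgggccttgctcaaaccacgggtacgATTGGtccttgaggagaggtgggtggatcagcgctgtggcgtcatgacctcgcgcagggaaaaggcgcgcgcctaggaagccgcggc
Cdt1 (chr8:122567765-122568014, plus strand): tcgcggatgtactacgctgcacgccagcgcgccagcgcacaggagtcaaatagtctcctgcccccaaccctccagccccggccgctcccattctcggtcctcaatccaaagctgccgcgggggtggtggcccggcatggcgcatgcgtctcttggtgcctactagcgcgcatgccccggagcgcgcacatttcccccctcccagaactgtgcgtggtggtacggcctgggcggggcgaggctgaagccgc
Cenpa (chr5:30666636-30666885, plus strand): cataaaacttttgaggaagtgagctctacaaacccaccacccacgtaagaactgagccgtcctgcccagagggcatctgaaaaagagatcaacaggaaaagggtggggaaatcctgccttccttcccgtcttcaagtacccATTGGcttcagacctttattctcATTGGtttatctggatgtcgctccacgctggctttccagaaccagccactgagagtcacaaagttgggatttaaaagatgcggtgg
Racgap1 (chr15:99651657-99651906, minus strand): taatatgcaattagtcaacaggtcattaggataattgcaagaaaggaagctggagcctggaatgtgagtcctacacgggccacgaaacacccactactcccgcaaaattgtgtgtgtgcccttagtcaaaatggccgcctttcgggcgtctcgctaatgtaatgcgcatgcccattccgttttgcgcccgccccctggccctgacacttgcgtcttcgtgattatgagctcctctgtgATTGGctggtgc

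Pcna has a CCAAT box in reverse orientation that begins 87 bases before the start, Cenpa has 2 such boxes at 109 and 86 bases, and Racgap1 has 1 at 12 bases. Cdt1 has no match in the stretch shown. An E2F match of Cdt1 and CHR cores of Cenpa and Racgap1 lie in the rest of their windows. The next 4 sequences belong to Mki67, Ccnb2, Ube2c and Tyms, chosen after their values were seen because they differed most between the genotypes among the members above 1 FPKM.
Mki67 (chr7:135716380-135716629, minus strand): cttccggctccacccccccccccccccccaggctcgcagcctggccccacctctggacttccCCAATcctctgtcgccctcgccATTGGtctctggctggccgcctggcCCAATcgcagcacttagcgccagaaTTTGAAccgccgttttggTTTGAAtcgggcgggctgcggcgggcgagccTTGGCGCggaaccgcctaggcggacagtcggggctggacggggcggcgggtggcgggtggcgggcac
Ccnb2 (chr9:70421555-70421804, minus strand): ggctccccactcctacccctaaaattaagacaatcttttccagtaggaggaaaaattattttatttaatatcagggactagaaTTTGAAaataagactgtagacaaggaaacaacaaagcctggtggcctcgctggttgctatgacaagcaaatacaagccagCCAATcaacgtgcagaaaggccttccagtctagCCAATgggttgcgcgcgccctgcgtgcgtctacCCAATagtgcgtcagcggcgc
Ube2c (chr2:164769679-164769928, plus strand): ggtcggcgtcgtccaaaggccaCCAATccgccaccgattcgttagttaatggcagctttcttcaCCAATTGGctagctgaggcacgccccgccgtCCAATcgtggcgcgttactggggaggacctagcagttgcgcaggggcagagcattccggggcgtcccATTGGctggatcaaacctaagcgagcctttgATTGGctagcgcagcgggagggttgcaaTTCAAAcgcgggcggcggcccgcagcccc
Tyms (chr5:30073626-30073875, minus strand): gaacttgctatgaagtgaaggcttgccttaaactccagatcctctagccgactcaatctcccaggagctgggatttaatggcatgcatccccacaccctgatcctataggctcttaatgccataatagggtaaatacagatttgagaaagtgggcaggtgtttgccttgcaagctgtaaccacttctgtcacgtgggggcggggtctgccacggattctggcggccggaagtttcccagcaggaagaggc

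Mki67 has 2 CHR cores at 116 and 98 bases before the start, 3 CCAAT boxes between 188 and 141 bases and an E2F match at 67 bases. In Ccnb2, 3 CCAAT boxes lie at 87, 54 and 21 bases, evenly spaced, and a CHR core at 167 bases. Ube2c has a CHR core on the reverse strand at 29 bases and CCAAT boxes on both strands, a pair of which overlap in a palindrome. Tyms has none of these letters in its window.

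Over the whole windows, the CHR core was present in 14 of 20 mitosis and cytokinesis members (70.0%) and in 1 of 14 replication members (7.14%), Mcm2. It was present in 13.9% of the 7509 gene names averaging 1 FPKM or more that have a window, and in 20.2% of all 27025 genes with a window. CCAAT boxes were present in 16 of 20 mitosis members (80.0%) and 9 of 14 replication members (64.3%), against 43.5% of the genes above 1 FPKM. For E2F the order was the opposite, with 9 of 14 replication members (64.3%), 4 of 20 mitosis members (20.0%) and 20.3% of the genes above 1 FPKM. In the last 150 bases before the start alone, the CHR core was present in 7 of 20 mitosis members (35%), 7.14% of replication members and 6.3% of the genes above 1 FPKM, and E2F in 42.9% of replication members, 20.0% of mitosis members and 12.1% of these genes. The matches are of letters and do not show that a factor binds.

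**Figure D1:**
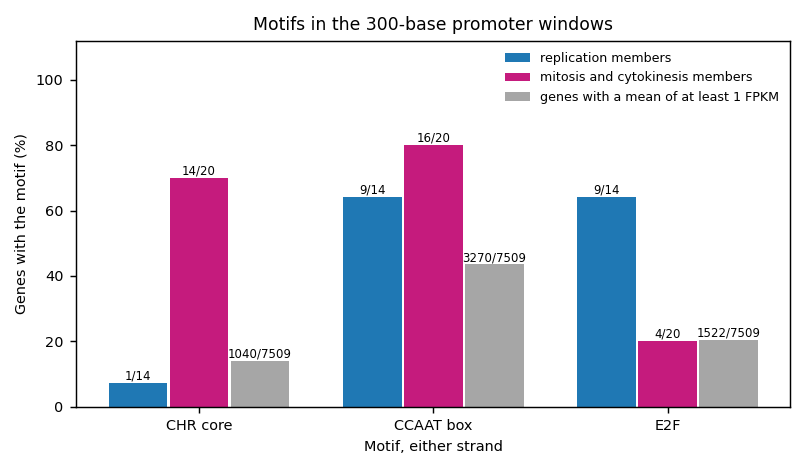
Share of genes (%) whose promoter window of 300 bases holds each motif on either strand, for replication members, mitosis and cytokinesis members and all genes averaging 1 FPKM or more; the numbers above the bars are genes with the motif over genes with a window. The CHR core stands at 70.0% in mitosis members and 7.14% in replication members, and E2F at 20.0% and 64.3%; in the last 150 bases before the start the CHR core is present in 35% of mitosis members.

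Replication members had higher levels than mitosis members in these unstimulated cells. Of the 17 replication members (origin licensing, fork, nucleotide supply and the E cyclins), 15 had a mean of at least 1 FPKM, with a median level of 13.1 FPKM. Of the 25 mitosis and cytokinesis members, 16 did, with a median level of 2.30 FPKM. All 9879 gene names averaging 1 FPKM or more had a median level of 14.01 FPKM. Pcna, the sliding clamp of the replication fork, which also serves in DNA repair, was the highest member at percentile 93.4 of these gene names and made up 25.9% of the summed FPKM of the 42 members in wt/fl cells. The members other than Pcna summed to 275 FPKM (wt/fl) and 262 FPKM (fl/fl).

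**Figure D2:**
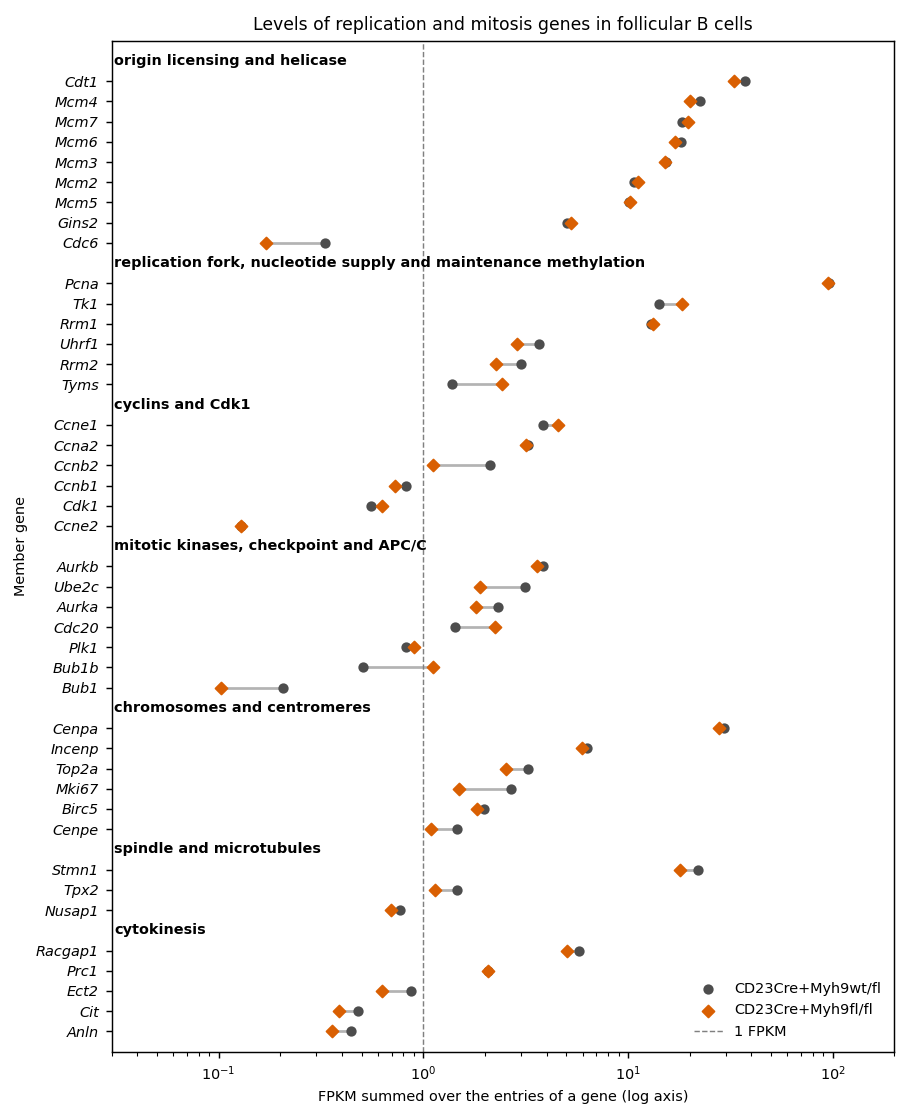
FPKM of the 42 members (log axis), by role and in order of level, in CD23Cre+Myh9wt/fl (circles) and CD23Cre+Myh9fl/fl (diamonds) cells, each symbol a value pooled over 3 samples; the dashed line is 1 FPKM. Pcna stands at 95.9 and 94.6 FPKM, Mcm genes between 10.1 and 22.6 FPKM and most mitosis genes below 4 FPKM, with the fl/fl symbol to the left of the wt/fl symbol for Mki67, Ccnb2 and Ube2c and to its right for Tyms, Cdc20 and Bub1b.

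Differences between the genotypes were taken as the log2 ratio of fl/fl over wt/fl with 1 added to each FPKM, a scale that understates differences of genes with low values, and a gene was called past 1.5-fold on that scale. None of the 31 members above 1 FPKM was called in either direction, where 1.53% of the 9879 gene names were called lower and 0.79% higher. With 0.5 added in place of 1, 3 of the 31 were called lower (Ccnb2, Ube2c and Mki67) and 1 higher (Tyms), beside 2.0% and 1.11% of the gene names. With 0.1 added, the same 3 were called lower and Tyms and Cdc20 higher, beside 2.59% and 1.6%. All 5 averaged between 1 and 5 FPKM, where more genes pass. Of the gene names in that range, 5.8% were called lower and 3.74% higher with 0.5 added, and 8.19% and 5.61% with 0.1 added. The shares at these constants were added after the values were seen. By direction alone, 22 of the 31 members (71.0%) were lower in fl/fl cells, against 49.5% of the gene names, and the median log2 ratio was −0.08, against 0.0026.

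Mitosis and replication members were then counted apart, a difference that was not tested. Of the 16 mitosis and cytokinesis members above 1 FPKM, 15 (93.8%) were lower in fl/fl cells, with a median log2 ratio of −0.19, although for 1 of these, Prc1, the pooled values were equal when rounded and the sign turned under quantile normalization. Cdc20 was the 1 member that was higher. Of the 15 replication members, 7 (46.7%) were lower and 8 were higher, with a median log2 ratio of 0.01. Counting the members under 1 FPKM as well, 21 of 25 mitosis members and 9 of 17 replication members were lower. No share of all gene names without the cutoff is set beside these 2 counts, so they are given as counts only.

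Low values scatter more, so the members with a mean of 1 to 5 FPKM were also set beside gene names in that range, a comparison added after the values were seen. Of 2138 such gene names, 54.8% were lower in fl/fl cells, 3.93% were called lower and 2.43% were called higher past 1.5-fold, with a median log2 ratio of −0.03 and quartiles at −0.19 and 0.13. Of the 12 mitosis members in the range, 11 were lower, Prc1 among them, and the median log2 ratio was −0.22. Only 4 replication members were in the range, of which 2 were lower, with a median of −0.04. Of 37 other replication, mitosis and cytokinesis genes in the range, taken from the lists described below, 22 (59.5%) were lower, with a median of −0.03. The 4 mitosis members at 5 FPKM or more, Cenpa, Stmn1, Incenp and Racgap1, were all lower, with a median of −0.13, where 48.0% of the 7741 gene names at that level were lower. The members are not replicates of a genotype.

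**Figure D3:**
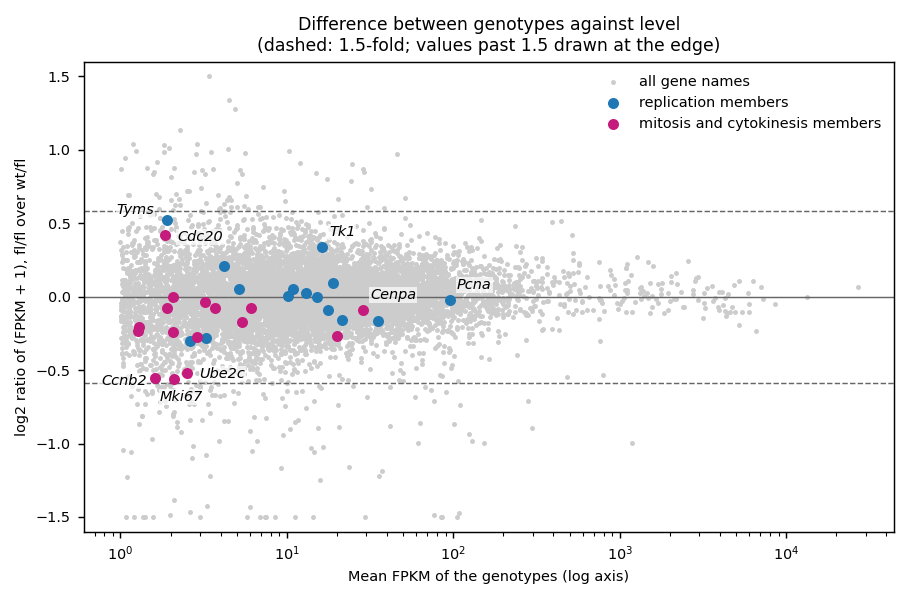
Log2 ratio of (FPKM + 1), fl/fl over wt/fl, against mean FPKM (log axis) for all 9879 gene names averaging 1 FPKM or more (grey), the 15 replication members and the 16 mitosis and cytokinesis members; dashed lines mark 1.5-fold, and grey values beyond 1.5 are drawn at the edge. Mitosis members lie below 0 except for Cdc20 and Prc1, replication members lie on both sides, and no member passes a dashed line.

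Summed over its subunits, the MCM helicase was at nearly the same level in both genotypes. The 6 subunits of the MCM helicase ranged from 10.2 to 21.3 FPKM in the mean of the genotypes and summed to 95.1 FPKM (wt/fl) and 93.2 FPKM (fl/fl). Mcm4 was at 22.6 FPKM (wt/fl) and 20.1 FPKM (fl/fl), a log2 ratio of −0.16, and Mcm7 at 18.2 and 19.6 FPKM, a log2 ratio of 0.10, and the other 4 subunits lay between these.

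Cdt1, which loads the helicase together with Cdc6, was at 37.1 FPKM (wt/fl) and 33.0 FPKM (fl/fl), a log2 ratio of −0.16. Cdc6 was at 0.331 and 0.170 FPKM. Gins2, a subunit of the complex that activates the helicase, was at 5.06 and 5.27 FPKM.

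At the fork, Pcna was at 95.9 FPKM (wt/fl) and 94.6 FPKM (fl/fl), a log2 ratio of −0.02. Rrm1, the large subunit of ribonucleotide reductase, was at 12.97 and 13.2 FPKM. Rrm2, its S phase subunit, was at 3.01 and 2.25 FPKM, a log2 ratio of −0.30. Both enzymes that make thymidine nucleotides were higher in fl/fl cells. Tyms, thymidylate synthase, was at 1.38 FPKM (wt/fl) and 2.43 FPKM (fl/fl), a log2 ratio of 0.52 and 175% of the wt/fl level. Tk1, thymidine kinase, was at 14.2 and 18.3 FPKM, a log2 ratio of 0.34.

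Of the 42 members, 8 have 2 entries each, which are groups of transcripts with the same coding sequence. The differences of Tk1 and Uhrf1 depended on the entry. The higher entry of Tk1 was at 9.92 FPKM (wt/fl) and 10.5 FPKM (fl/fl), and the lower one at 4.29 and 7.81 FPKM, so that the difference lay mainly in the lower entry. For Uhrf1, which guides maintenance methylation of newly copied DNA, 1 entry was at 2.19 FPKM (wt/fl) and 0.00758 FPKM (fl/fl) while the other was at 1.502 and 2.85 FPKM. Summed, Uhrf1 was at 3.69 and 2.86 FPKM, a log2 ratio of −0.28, but by its highest entry alone it was 0.62 and the only member called in either direction, where 1.19% of gene names read in that way were called higher. The 2 entries of Birc5, Nusap1, Ccne2 and Cdc6 also differed in opposite directions. Fragments shared by such entries have to be divided between them by estimation.

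Among the cyclins, Ccne1, which pairs with Cdk2 at the start of S phase, was at 3.82 FPKM (wt/fl) and 4.57 FPKM (fl/fl), and Ccne2 was at 0.129 FPKM in both. Ccna2, used in S phase and G2, was at 3.26 and 3.16 FPKM. Ccnb2, a partner of Cdk1 in mitosis, was at 2.11 and 1.12 FPKM, 53.1% of the wt/fl level and a log2 ratio of −0.55. Ccnb1, the main mitotic cyclin, was at 0.821 and 0.724 FPKM, and Cdk1 was at 0.555 and 0.629 FPKM. Ccne1 and Ccna2 were above Cdk1 in both genotypes, and Ccne2 was below it.

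The kinases and the exit machinery of mitosis differed in both directions. Ube2c, the ubiquitin-conjugating enzyme of the APC/C, was at 3.13 FPKM (wt/fl) and 1.89 FPKM (fl/fl), 60.2% of the wt/fl level and a log2 ratio of −0.52. Cdc20, the activator of the same complex, was at 1.43 and 2.25 FPKM, 157% of the wt/fl level and a log2 ratio of 0.42. These partners therefore differed in opposite directions. Aurka, which acts at spindle poles, was at 2.32 and 1.81 FPKM, and Aurkb, the kinase of the chromosomal passenger complex, at 3.83 and 3.59 FPKM. Plk1 was at 0.823 and 0.898 FPKM. Of the checkpoint kinases, Bub1b was at 0.507 and 1.11 FPKM, 219% of the wt/fl level, and Bub1 at 0.206 and 0.103 FPKM, 50% of it.

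All 6 members of chromosomes and centromeres were lower in fl/fl cells. Mki67, the Ki-67 protein that coats mitotic chromosomes and marks cycling cells, was at 2.69 FPKM (wt/fl) and 1.501 FPKM (fl/fl), 55.8% of the wt/fl level, and its log2 ratio of −0.56 was the lowest of all members. Top2a, the topoisomerase that untangles sister chromatids, was at 3.26 and 2.52 FPKM, a log2 ratio of −0.28. Cenpe, a kinetochore motor, was at 1.46 and 1.09 FPKM, a log2 ratio of −0.24. Cenpa, the histone H3 variant of centromeres, was far above the others with 29.6 and 27.7 FPKM, a log2 ratio of −0.09. Incenp, the scaffold of the chromosomal passenger complex, was at 6.31 and 5.94 FPKM, and Birc5, another of its subunits, at 1.99 and 1.83 FPKM. The entries of Birc5 differed in opposite directions, 1 at 1.20 and 0.937 FPKM and the other at 0.789 and 0.891 FPKM.

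Of the spindle members, Stmn1, which destabilizes microtubules, was at 21.9 FPKM (wt/fl) and 18.01 FPKM (fl/fl), a log2 ratio of −0.27 and the lowest among the members at 5 FPKM or more. Tpx2, an activator of Aurka on the spindle, was at 1.46 and 1.14 FPKM, and Nusap1, which bundles spindle microtubules, at 0.769 and 0.697 FPKM.

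The cytokinesis members act with myosin II at the cleavage furrow. Racgap1, a subunit of centralspindlin, was at 5.79 FPKM (wt/fl) and 5.02 FPKM (fl/fl), a log2 ratio of −0.17. Prc1, which bundles the central spindle, was at 2.08 FPKM in both. Ect2, which activates RhoA at the furrow, was at 0.868 and 0.626 FPKM. Anln, a scaffold that links actin and myosin, was at 0.446 and 0.358 FPKM, and Cit, the citron kinase, at 0.480 and 0.386 FPKM. Of the 5, 4 were lower in fl/fl cells and Prc1 was equal, and Myh9 stood at 41.7% of the wt/fl level.

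The 11 members under 1 FPKM (Cdc6, Ccne2, Ccnb1, Cdk1, Plk1, Bub1, Bub1b, Nusap1, Anln, Ect2 and Cit) had means from 0.129 to 0.860 FPKM. Of these, 8 were lower in fl/fl cells and 3 were higher (Bub1b, Cdk1 and Plk1), counts without a share of all gene names under 1 FPKM beside them. Depth per sample is unknown. The smallest step of FPKM multiplied by transcript length in kilobases was taken as 1 fragment, and it was read as 0.0309 in both genotypes. That would put about 105 fragments in wt/fl and 55 in fl/fl behind Ccnb2, 98 and 59 behind Ube2c, 142 and 248 behind Tyms, and 83 and 130 behind Cdc20, each over 3 samples. The long transcript of Mki67 would rest on about 875 and 488 fragments, and Bub1 on 23 and 11. Only 31.3% of 916 low values in wt/fl and 38.1% of 1251 in fl/fl lay within 0.1 of a whole number of such steps. Values spread evenly would give no more than 20.0%. The step was itself read from these low values, so part of the excess and of the likeness between genotypes is built in. The fragment numbers are therefore rough, and the RNA had been amplified before sequencing, so fragments are not separate molecules.

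Another 138 genes of replication, mitosis and cytokinesis, listed by role, were read in the same way. Of 42 other replication genes averaging 1 FPKM or more, 21 were lower in fl/fl cells, with a median log2 ratio of 0.0020. The highest were Slbp, which binds histone mRNA, at 49.98 FPKM (wt/fl) and 46.4 FPKM (fl/fl), and Rfc2, of the clamp loader, at 44.1 and 40.4 FPKM. Of 19 genes of cell cycle transcription and CDK control, 9 were lower, with a median of 0.01, and the highest were the repressors E2f4 (41.7 and 40.7 FPKM) and Rb1 (37.7 and 36.4 FPKM).

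Of 21 genes of chromosomes, kinetochore and cohesion, 14 (66.7%) were lower in fl/fl cells, with a median log2 ratio of −0.09. Among them Cdca8, borealin, the partner of Aurkb, Incenp and Birc5 in the chromosomal passenger complex, was at 3.69 and 2.09 FPKM, a log2 ratio of −0.60, and was the only 1 called past 1.5-fold among the 111 of these genes averaging 1 FPKM or more. The highest of the list were Pttg1, securin, at 58.4 and 51.5 FPKM and Smc4, of condensin, at 51.7 and 53.3 FPKM. Of 10 spindle genes above 1 FPKM, 6 were lower, with a median of −0.07, and the highest were Ckap5 (15.4 and 16.1 FPKM) and Cks2 (14.3 and 11.2 FPKM).

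Of 19 other genes of cytokinesis and abscission, 7 were lower in fl/fl cells, with a median log2 ratio of 0.03. The highest were the myosin II light chains Myl12b, at 470 FPKM (wt/fl) and 501 FPKM (fl/fl), and Myl6, at 429 and 433 FPKM, which also serve outside division. Kif23, named after its values were seen because it is the other subunit of centralspindlin beside Racgap1, was at 2.58 and 1.497 FPKM, a log2 ratio of −0.52. Whether the 138 genes and the members differ was not tested.

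**Figure D4:**
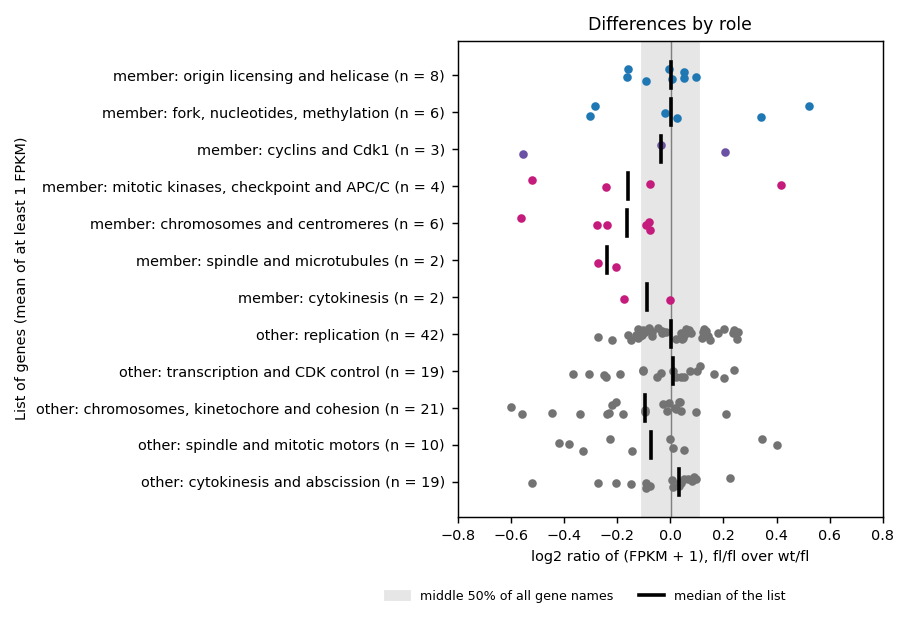
Log2 ratio of (FPKM + 1), fl/fl over wt/fl, of each gene averaging 1 FPKM or more in the 7 role groups of members and the 5 lists of other genes; black bars are medians, and the grey band lies between the quartiles of all gene names, −0.11 and 0.11. Replication groups center on 0, the members of chromosomes and centromeres all lie below 0, and the lists of other kinetochore and spindle genes have medians of −0.09 and −0.07.

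Markers of some other cells were also lower in fl/fl cells. All 7 neutrophil markers above 1 FPKM were lower in fl/fl cells, and the 10 listed summed to 377 FPKM (wt/fl) and 66.5 FPKM (fl/fl), with S100a9 at 175 and 34.5 FPKM and S100a8 at 145 and 25.8 FPKM. Granule genes of neutrophil precursors were among them. Ngp was at 13.4 and 1.29 FPKM, Camp at 15.3 and 1.703 FPKM, Lcn2 at 12.6 and 1.21 FPKM and Ltf at 2.31 and 0.118 FPKM. Granule genes of the earliest precursors were under 1 FPKM, with Prtn3 at 0.414 and 0.0363 FPKM, Mpo at 0.0916 and Elane at 0.119 FPKM in wt/fl cells, and both of the latter listed at 0 in fl/fl cells. The 10 erythroid markers summed to 102 and 15.1 FPKM, led by Beta-s at 52.0 and 7.08 FPKM and by the entries of Hba-a1 and Hba-a2 at 25.8 and 3.05 FPKM, while Klf1, a factor of erythroid precursors, was at 0.248 and 0.203 FPKM. The 7 plasma cell markers summed to 120 and 110 FPKM, with Irf4 (60.8 and 58.9 FPKM) and Xbp1 (48.8 and 45.9 FPKM) the highest. Igj was at 5.40 and 0.617 FPKM and Sdc1 at 2.30 and 1.13 FPKM, while Tnfrsf17 was listed at 0 in both. Of the 5 plasma cell markers above 1 FPKM, 4 were lower in fl/fl cells and 1 was higher. Igj and Sdc1 were called past 1.5-fold lower, as were 1.53% of the 9879 gene names. The 10 germinal center markers summed to 74.4 and 91.4 FPKM, with Bcl6 (48.4 and 59.95 FPKM) and Elk3 (18.1 and 20.8 FPKM) the highest. T cell markers summed to 27.3 and 25.4 FPKM (Lck at 14.5 in both, Lat at 2.86 and 2.54), macrophage markers to 14.7 and 13.7 FPKM (Cd68 at 7.41 and 6.10, C1qb at 1.61 and 2.39) and transitional B cell markers to 321 and 319 FPKM (Vpreb3 at 318 and 314, Cd93 at 3.28 and 4.23). The part of such cells in the levels of the mitosis members was not tested.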

How the data were processed

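RNA of sorted follicular B cells was amplified with the Ovation RNA-Seq system, made into libraries with a TruSeq Nano DNA kit and sequenced. The authors' deposited table has the layout of Cuffdiff, with 25017 entries, each a group of transcripts with a shared coding sequence, and holds FPKM per genotype, pooled by the authors over 3 samples. Bowtie, TopHat and Cufflinks are named in the submitters' processing notes, with builds mm10 and GRCm38, but the sequence names and positions in the table are those of mm9, and no position from it is given. The table's other columns hold the authors' own fold changes, test statistics, p-values and q-values, and were not used.

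FPKM was summed per gene name (42 members with 50 entries). Log2 ratios had a pseudocount of 1 FPKM, lists a minimum mean of 1 FPKM, and calls a 1.5-fold limit. Transcript lengths came from GENCODE M21, and promoters from RefSeq on GRCm38.p6. The smallest step of FPKM times length was read between 0.02 and 0.04, a window chosen after its values were seen. Precision is limited to what pooled values allow. The members and lists were chosen with earlier results of these data known. Named were all members, Myh9, in each other list the genes past 1.5-fold and the 2 highest, and in each marker list the 2 highest; others are marked where they stand or, among markers, bear on members. The alternatives were pseudocounts of 0.1 and 0.5, other filters, a 2-fold limit, upper quartile scaling, quantile normalization, the highest entry per gene and a shorter promoter window. Python 3.11.15, pandas 2.3.3 and numpy 2.4.6 were used, and the computations were tested on simulated data.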

Additional observations from a re-analysis of the deposited data

How the results depend on the processing

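The mitosis and cytokinesis members were lower on balance under every alternative tried. Their median log2 ratio ran from −0.24 (0.1 added to FPKM) to −0.09 (no filter) and their share of lower members from 84.0% to 100%. The 100% is that of only 4 members, those at 5 FPKM or more. Another constant or fold limit cannot turn the sign of a ratio, so the direction was fixed in advance under those alternatives. The median of the replication members stayed between −0.00075 and 0.03. Shares of lower members under the alternatives have no share of all gene names beside them here. Counts past the fold depended on the constant added. They cover only members and other genes averaging 1 FPKM or more, unless another filter is named. With 0.1 added, 3 of the 31 members were past 1.5-fold lower (all 3 of mitosis) and 2 higher (1 of replication and 1 of mitosis). Of the 111 other genes, 4 were lower and 1 higher. With 0.5 added, 3 of these members were lower (all 3 of mitosis) and 1 higher (of replication), and 3 of these other genes were lower. Over all gene names, calls were also more frequent with these constants, at 2.59% lower and 1.6% higher with 0.1 added and 2.0% and 1.11% with 0.5 added. By the highest entry of each gene, 1 member, Uhrf1 of replication, and 1 other gene were past 1.5-fold higher. The 1 other gene past 1.5-fold lower was no longer so, leaving 0, under quantile normalization, at a mean of at least 5 FPKM and at a 2-fold limit. In the last 150 bases before the start, the share of mitosis members with the CHR core was 35% in place of 70.0%, and that of replication members with E2F 42.9% in place of 64.3%. No paired analysis was possible because the authors' table holds 1 pooled value per genotype, and for the same reason no replicate could be left out. Of 210 values of single members under the alternatives, 185 moved by less than 0.1 on the log2 scale. Of the 31 members above 1 FPKM, 30 kept their sign under quantile normalization, where Prc1 turned, and 30 by the highest entry, where Uhrf1 turned from −0.28 to 0.62. The pooled values and the unknown depth limit all of these results to sizes without error.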
